A study of Mus musculus with 12 samples.

Results

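Colon RNA of mice given DAPP before DSS was set against colon RNA of mice given DAPP during DSS. The comparison is between 6 of the 12 arrays of the series, 3 for each timing, chosen by the treatment labels. The spread behind its tests was estimated from all 4 groups. The 4 groups are control mice, mice given DSS, and both DAPP groups, each of 3 males aged 7 to 8 weeks, and the mice of both DAPP groups received DSS as well. DSS (dextran sulfate sodium) damages the epithelium of the large bowel when mice drink it and is a standard way to cause colitis. The labels give DAPP only as letters; the title of the series is about apple peel polyphenols in bowel inflammation. A number without a unit stands in the column names of both DAPP groups, 200 where DAPP came first and 400 where it was given together with DSS. Timing and this number therefore cannot be told apart, and every difference below is one of both together. Neither strain, vehicle nor length of treatment is stated in the labels used. The labels call the samples biological replicates without naming animals or litters, so the spread behind each p may be partly technical.

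In DSS colitis the epithelium is lost in patches, neutrophils and monocytes enter the wall, and the crypts regrow. Polyphenols are studied in this model mainly for their effects on oxidants, on NF-kappaB signalling and on NRF2, the transcription factor of the antioxidant response. Colon genes also follow systemic signals: glucocorticoid hormone, which rises with stress and illness, acts through its receptor on genes such as Tsc22d3, and FoxO factors, active when insulin signalling is low, act on genes such as Pdk4.

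A level here is a background-corrected, quantile-normalised log2 intensity, and a difference is DAPP before minus DAPP during on that log2 scale, with the standard error from limma's linear model. A probe counted when its detection p, the chance of such a signal from background, was under 0.05 on at least 3 of the 6 DAPP arrays. This left 20967 of 45281 probes, and 11322 genes were tested, each through its brightest probe. Levels are not compared between genes, since each probe has its own brightness. For the colon label Car1, a carbonic anhydrase of surface colonocytes, was looked at, and it lay between 13.32 and 14.77 on all 12 arrays. Car1 is also in the red blood cell list used below, so by itself it does not settle the tissue.

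Replicate 1 of DAPP before DSS stood apart from the other 11 arrays. It correlated with them at 0.817 to 0.909 over the tested genes, while the other pairs of arrays correlated at 0.912 to 0.985. On it, 508 genes were not detected that were detected on all 11 others, against 1 to 89 such genes on each other array. Among 4370 genes with more than 1 kept probe, 614 had probes whose deviations from the other arrays differed by over 2 log2 units there, against 3 to 40 elsewhere. Pfn1, which codes for the actin-binding protein profilin, read 6.79 on this array and 12.19 and 12.53 on its fellow replicates. Glycam1, a mucin-like ligand made by lymph node vessels, read 11.10 there and 4.82 and 6.32 on the others. In all, 251 genes were over 4-fold higher and 371 over 4-fold lower on this array than the mean of the other DAPP-before replicates. Its cause was not tested, and values without it are given beside those with all arrays.

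**Figure D1:**
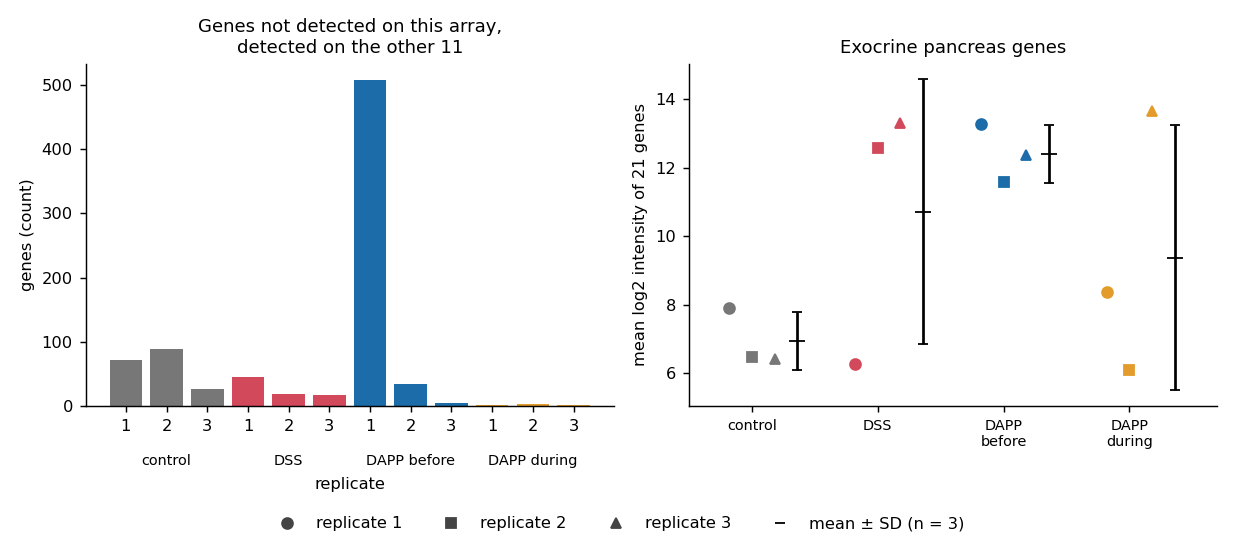
Left, the number of genes not detected on 1 array but detected on the other 11, by array. Right, the mean log2 intensity of 21 exocrine pancreas genes on each array, with the mean and SD of each group. DAPP-before replicate 1 lacks 508 genes found elsewhere, and pancreas genes are high on 6 of the 12 arrays, 3 of them DAPP-before and 1 DAPP-during.

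Genes of the exocrine pancreas, which code for digestive enzymes of acinar cells, were high on some arrays. Of 24 listed genes, 21 were tested. Their mean level was 13.27, 11.57 and 12.37 on the DAPP-before arrays and 8.38, 6.10 and 13.65 on the DAPP-during arrays. The control arrays held 7.91, 6.48 and 6.41, and the DSS arrays 6.28, 12.58 and 13.30. The highest of the 12 values was thus a DAPP-during array, and the groups overlapped for every one of the 21 genes. Their median difference was 3.53, or 3.14 without DAPP-before replicate 1, and 0 of the 21 passed the test. Their part in the other differences was not tested beyond a fit with this mean as a covariate, whose values are given where they are used. In whole colon, fewer cells of a type and less RNA per cell cannot be told apart.

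No gene differed between the timings at an adjusted p under 0.05. Over the 11322 genes, limma called 0 (0%), and the smallest adjusted p was 0.833. Without DAPP-before replicate 1 it again called 0 (0%), with a smallest adjusted p of 1. At an unadjusted limma p under 0.05 there were 468 genes (4.13%), 229 higher and 239 lower in DAPP before DSS. Without replicate 1 there were 360 (3.18%), 103 higher and 257 lower, and 147 genes were in both sets, with the same sign in each. With arrays scaled to equal medians in place of quantiles, the median of all genes moved from -0.02 to -0.24, and the unadjusted set became 86 higher and 833 lower.

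The intervals show which sizes of difference the fitted model leaves possible. Their widths rest on a spread pooled over all 4 groups, controls and DSS arrays included, and taken as equal in each group. They are therefore not the precision of the 6 DAPP arrays alone. The 95% interval of a gene's difference had a median half-width of 0.63 log2 units, or 0.56 without replicate 1. For 7076 genes (62.5%) the whole interval lay within 1 log2 unit of 0, meaning within 2-fold, and without replicate 1 this held for 8820 genes (77.9%). For the remaining genes the interval reached beyond 1 log2 unit in at least 1 direction. The median SD among replicates was 0.46 in DAPP before DSS, 0.23 without replicate 1, and 0.20 in DAPP during DSS. The pooled spread takes no account of this difference between the groups.

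**Figure D2:**
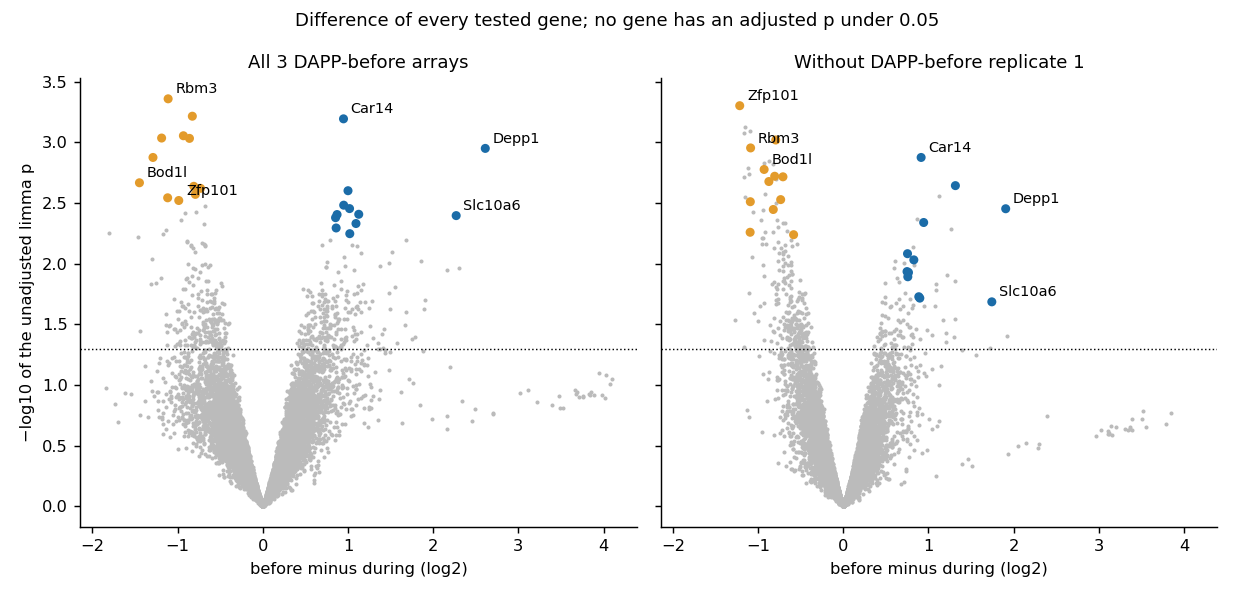
Each point is 1 of 11322 genes, with its difference on the log2 scale across and the negative log10 of its unadjusted limma p upward, for all arrays (left) and without DAPP-before replicate 1 (right). Coloured points are the 24 named genes, the dotted line is an unadjusted p of 0.05, and no gene has an adjusted p under 0.05 in either panel. Points at the far right with small heights are mostly pancreas genes.

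The genes described next did not pass the test. They are the 12 of smallest unadjusted p in each direction whose 3 DAPP-before values lay wholly above or below the 3 DAPP-during values and that were detected on all 3 arrays of the brighter group. Groups apart in this way with DAPP before higher numbered 450 of 11322 genes (3.97%), and with DAPP before lower 424 (3.74%). Without replicate 1, where 2 values face 3, these numbers were 898 (7.93%) and 1144 (10.1%). Each gene named in this way had an adjusted limma p of 0.833 with all arrays and of 1 without replicate 1. The choice by smallest p and separated groups favours large differences. The standard errors and intervals of these genes are not corrected for it, while the adjusted p is taken over all genes tested.

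Depp1, a gene of autophagy control that FoxO factors are known to switch on, had the widest gap of the 24. Its level was 10.07, 8.51 and 7.38 in DAPP before DSS, against 6.21, 5.75 and 6.16 in DAPP during DSS. The DAPP-during values lay near the control mean of 6.53 ± 0.20 (SD, n = 3), while the DSS arrays spread widely, at 8.32, 9.07 and 6.91. The difference was 2.61 ± 0.61, a 6.11-fold ratio with a 95% interval of 1.28 to 3.95 on the log2 scale. Without replicate 1 it was 1.91 ± 0.52, and with the pancreas covariate 2.58.

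Slc10a6, a carrier of sulfated steroids, had levels of 10.35, 9.26 and 8.35 in DAPP before DSS, against 7.41, 7.33 and 6.40 in DAPP during DSS. Both DAPP groups were above the controls, which read 5.20 to 5.83, and the DSS arrays read 8.97, 9.29 and 6.72. The difference was 2.27 ± 0.64, and 1.74 ± 0.64 without replicate 1. A second probe of the gene gave 1.95 ± 0.66.

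Tsc22d3 codes for GILZ, a protein that glucocorticoids induce and that restrains inflammatory signalling. It read 12.34, 11.89 and 11.26 in DAPP before DSS against 10.96, 10.66 and 10.82 in DAPP during DSS. The DAPP-during values lay near the control mean of 10.94 ± 0.07 (SD, n = 3), while the DSS arrays read 11.75, 11.61 and 10.98. The difference was 1.02 ± 0.28, and 0.76 ± 0.26 without replicate 1. Of its other kept probes 1 gave 0.98 ± 0.29. The other gave -0.14 ± 0.24. Being a kept probe, it was detected on at least 3 of the 6 DAPP arrays. It was dim, with a mean level of 5.15 where the lowest detected signals of the arrays were 5.18 to 5.70.

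Map3k6, a kinase of the stress-activated MAP kinase cascade, read 10.10, 9.59 and 9.16 before and 8.78, 8.62 and 8.45 during. All 6 values were above the controls (7.47 ± 0.22, SD, n = 3), and the DSS arrays, at 8.61 ± 0.33, were close to the DAPP-during arrays. Its difference was 1.00 ± 0.26, and 0.75 ± 0.23 without replicate 1, and a second probe gave 0.95 ± 0.30 with all arrays. Mgl2, a lectin of macrophages and dendritic cells, read 9.40, 9.21 and 8.38 before and 8.27, 7.81 and 7.62 during, a difference of 1.09 ± 0.31 that was 0.89 ± 0.32 without replicate 1. A second probe of Mgl2 gave 1.37 ± 0.39. Car14, a membrane-bound carbonic anhydrase, had the smallest p of the genes higher in DAPP before DSS. It read 6.25, 5.89 and 6.28 before and 5.24, 5.31 and 5.02 during. It was detected on only 2 of the 3 DAPP-during arrays, so its level there is close to background. Its DAPP-before values lay near the controls (6.33 ± 0.30) and the DAPP-during values below them. The difference was 0.95 ± 0.21, and 0.91 ± 0.21 without replicate 1.

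The other 6 of the 12 had differences between 0.85 and 1.13. They are Ndufb11, a subunit of mitochondrial complex I, Prr5l, a partner of the mTOR complex that acts on AKT, Cnksr3, a scaffold of renal sodium channel control, Ntmt1, a methyltransferase of protein ends, Slc13a3, a dicarboxylate carrier, and Tac2, a tachykinin peptide. Tac2 was not detected on any DAPP-during array, so its ratio is a bound of at least 1.56-fold. Without replicate 1 these 6 differences ranged from 0.75 for Ndufb11 to 1.32 for Prr5l. A second, dimmer probe of Ndufb11 gave only 0.37 ± 0.34 with all arrays.

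**Figure D3:**
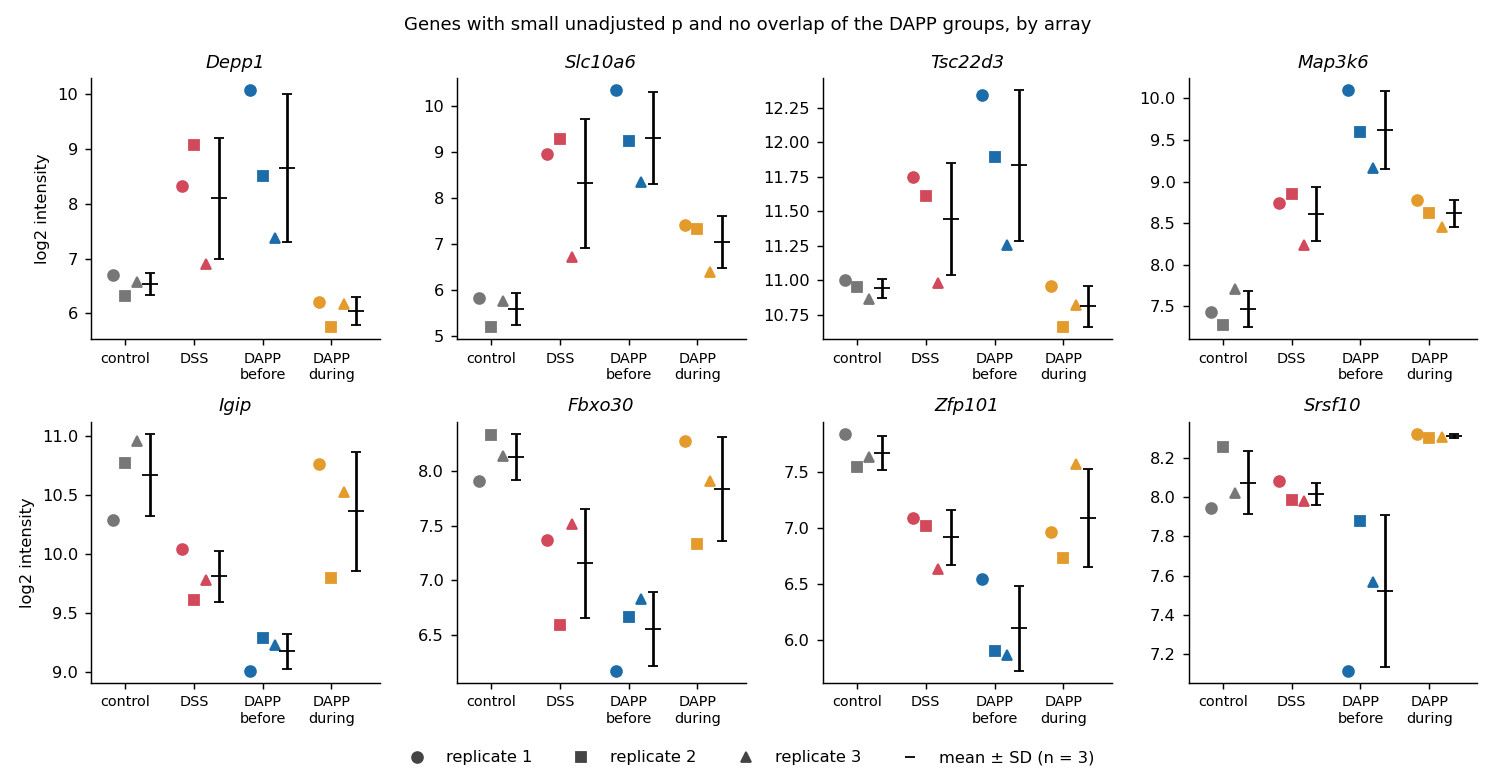
Log2 intensity of 8 of the 24 named genes on each of the 12 arrays, by group, with the mean and SD of 3 arrays, on an axis of its own for each gene. In the upper row the 3 DAPP-before values lie above the 3 DAPP-during values, in the lower row below them. None of these differences passed the test over all genes.

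Among genes lower in DAPP before DSS, Rbm3, an RNA-binding protein induced by cold, had the smallest p of all genes (0.000437 unadjusted, limma). It was detected on all 3 DAPP-during arrays, at 6.20, 5.83 and 5.94, and on 0 of the DAPP-before arrays, where its signal was 4.78, 4.70 and 5.16. The control arrays, at 4.83 to 5.45, and the DSS arrays, at 4.70 to 5.18, were also low, so the DAPP-during arrays were the high ones. Its measured difference was -1.11 ± 0.23, and -1.09 ± 0.25 without replicate 1, and as a bound the DAPP-during level was at least 1.47-fold higher.

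Igip, which codes for a peptide that promotes IgA production, read 9.01, 9.29 and 9.23 in DAPP before DSS, against 10.77, 9.80 and 10.53 in DAPP during DSS. The controls read 10.29 to 10.96 and the DSS arrays 9.61 to 10.05. The difference was -1.19 ± 0.27, and -1.09 ± 0.29 without replicate 1. Fbxo30, a ubiquitin ligase subunit, read 6.17, 6.66 and 6.83 before and 8.28, 7.33 and 7.91 during, with controls at 8.13 ± 0.21. The difference was -1.29 ± 0.31, and -1.09 ± 0.32 without replicate 1. For both genes the DAPP-before arrays were the lowest group, and 2 of the 3 DAPP-during arrays lay near the controls.

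Of these 12 genes, 4 carry the Zfp symbol of zinc finger proteins. Zfp101 read 6.54, 5.90 and 5.87 before and 6.97, 6.73 and 7.57 during, a difference of -0.99 ± 0.27. Without replicate 1 it had the smallest p of all genes (0.000498 unadjusted, limma), with a difference of -1.22 ± 0.25. Zfp866 differed by -0.86 ± 0.20, and by -0.80 ± 0.20 without replicate 1, and was detected on only 1 of the 3 DAPP-before arrays. For Zfp933, at -0.83 ± 0.18, and Zfp60, at -1.12 ± 0.30, another kept probe had the opposite sign, at 0.71 ± 0.37 and 0.40 ± 0.28. Without replicate 1 the brightest probes gave -0.79 ± 0.18 and -0.71 ± 0.17. The same held for Bod1l, a protector of replication forks, at -1.45 ± 0.37 with its brightest probe and 0.04 ± 0.39 with another. Without replicate 1 its brightest probe gave -0.93 ± 0.22. The opposing probes of Zfp60 and Bod1l were dim, at mean levels of 5.41 and 5.59, and that of Zfp933 lay at 6.31. The remaining 4 were Eri2, an exonuclease-family gene, at -0.93, Prkdc, the kinase of DNA end joining, at -0.81, Naa15, a subunit of the protein N-terminal acetyltransferase, at -0.73, and Srsf10, a splicing factor, at -0.79. Without replicate 1 these were -0.87, -0.82, -0.73 and -0.58. Eri2 and Prkdc were each detected on only 1 of the 3 DAPP-before arrays, and the brightest probes of Bod1l and Zfp60 on 2.

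Targets of glucocorticoids and FoxO factors were mostly higher in DAPP before DSS, while 0 of the 18 tested of 19 listed passed the test. The list's median difference was 0.49, and 0.59 without replicate 1, where the median of all genes was -0.02 and -0.01. Differences were above 0 for 15 of 18 genes, and for 18 of 18 without replicate 1, while 48.3% and 47.7% of all genes were above 0. The list's mean level was 9.95, 10.20 and 9.56 in DAPP before DSS, against 9.53, 9.30 and 9.20 in DAPP during DSS. The DSS arrays, at 9.56, 10.07 and 9.28, covered nearly the whole of that range, and the controls read 9.19 to 9.41. The lists were assembled with earlier results of these data known, so these counts are a description.

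At an unadjusted p under 0.05 were 5 of these 18 genes, against 4.13% of all genes. Groups were apart with DAPP before higher for 4 of the 18, beside 3.97% of all genes. Pdk4, the kinase that shuts pyruvate dehydrogenase in fasting, read 8.93, 7.51 and 6.36 before and 6.16, 5.59 and 5.47 during. Its difference was 1.86 ± 0.60, and 1.21 ± 0.53 without replicate 1. Ddit4, an inhibitor of mTOR, read 11.97, 11.52 and 10.78 before and 10.62, 10.37 and 10.65 during, a difference of 0.88 ± 0.29, and 0.60 ± 0.27 without replicate 1. In both genes replicate 3 of DAPP before DSS lay close to the DAPP-during arrays. Dusp1, a phosphatase that ends MAP kinase signals, differed by 1.00 ± 0.39, and Sgk1, the serum- and glucocorticoid-induced kinase, by 1.06 ± 0.44 with overlapping groups. Without replicate 1 these were 0.65 ± 0.37 and 0.85 ± 0.48. Irs2, an insulin receptor substrate, had a difference of 0.75 ± 0.35 that was 1.12 without replicate 1. The receptor gene itself, Nr3c1, differed by -0.10 ± 0.25, and by 0.15 ± 0.22 without replicate 1. With the pancreas covariate the differences of Pdk4, Ddit4, Dusp1 and Sgk1 were 1.83, 0.91, 1.20 and 1.07.

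Splicing factor genes were mostly lower in DAPP before DSS, while 0 of 20 tested of 22 listed passed. Their median difference was -0.53, and -0.25 without replicate 1. Of the 20, 18 had a difference below 0, and 17 without replicate 1. The list's mean level was 9.0, 9.79 and 9.61 before and 9.95, 9.93 and 10.05 during, so the lowest value came from the array that stood apart. The controls read 9.82 to 9.94 and the DSS arrays 9.77 to 9.87, a range that holds replicate 2 of DAPP before DSS. Srsf10 read 7.11, 7.88 and 7.57 before and 8.32, 8.30 and 8.31 during, with controls between 7.95 and 8.26. Its difference was -0.79 ± 0.21, and -0.58 ± 0.17 without replicate 1. Its 3 other probes gave -0.57, -0.82 and -0.36, all of the same sign. Clk1, a kinase of splicing factors, differed by -1.19 ± 0.41 with overlapping groups, and Luc7l3, a component of the U1 particle, by -0.54 ± 0.23. Without replicate 1 these were -0.73 ± 0.34 and -0.53 ± 0.24. Hnrnpu, a nuclear RNA-binding protein, was not detected on any DAPP-before array and was at least 1.12-fold higher in DAPP during DSS.

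**Figure D4:**
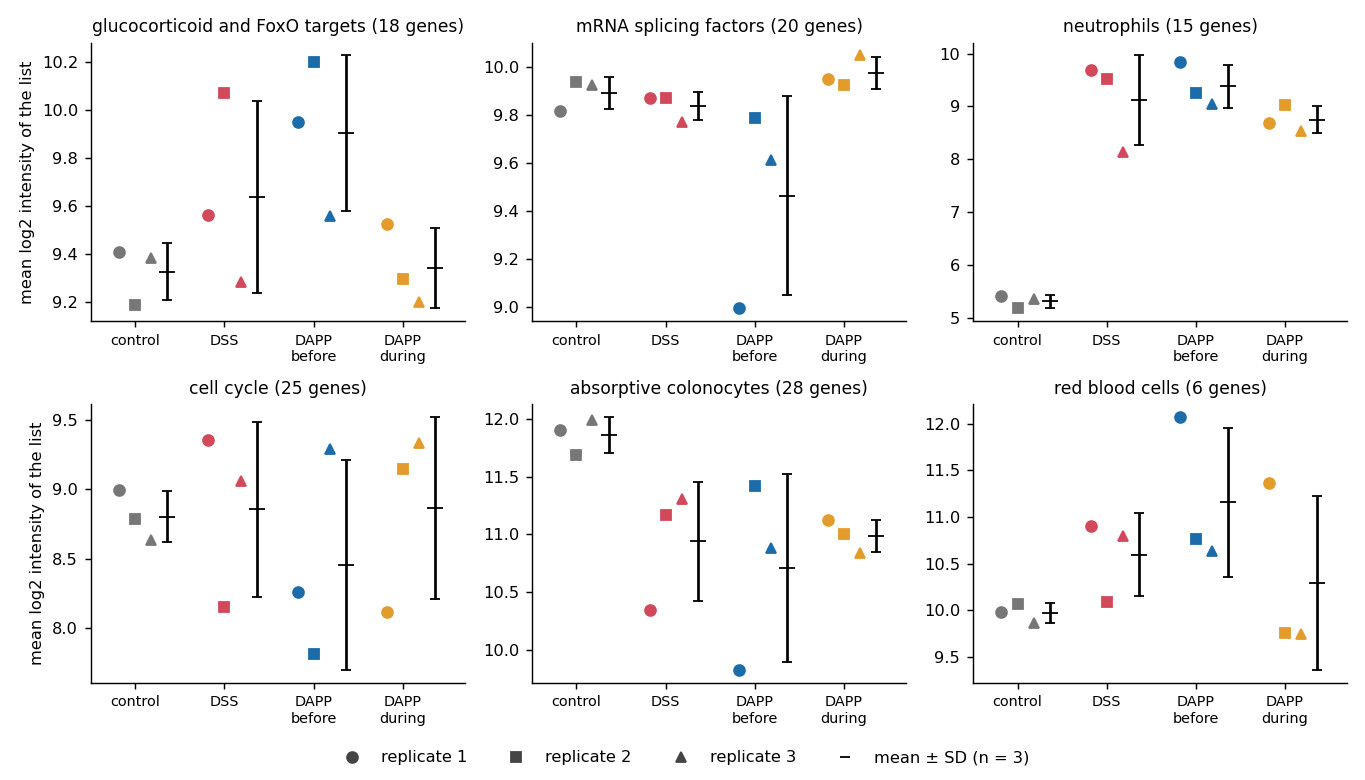
Mean log2 intensity of the tested genes of 6 lists on each array, with the mean and SD of each group of 3. DAPP-before replicate 1 is the lowest array for splicing factors and colonocyte genes and the highest for red blood cell and neutrophil genes. Neutrophil genes separate all DSS-treated arrays from the controls by more than any DAPP arrays differ among themselves.

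Neutrophil genes were detected in all DSS-treated groups, and their list mean was 9.84, 9.25 and 9.05 in DAPP before DSS, against 8.69, 9.03 and 8.53 in DAPP during DSS. The groups did not overlap, with the gap between 9.03 and 9.05. The controls read 5.17 to 5.40 and the DSS arrays 9.69, 9.52 and 8.14. Of 20 genes 15 were tested, 0 passed, and 13 had a difference above 0, or 11 without replicate 1. The median was 0.57, or 0.29 without replicate 1. The largest difference was that of Ngp, a gene of neutrophil granules. Ngp read 7.21, 8.19 and 6.21 before and 5.25, 5.91 and 4.74 during, a difference of 1.90 ± 0.71 that was 1.92 ± 0.82 without replicate 1. Camp, the antimicrobial peptide cathelicidin, differed by 1.89 ± 0.73, and by 0.79 ± 0.38 without replicate 1. Ltf, lactoferrin, differed by 0.89 ± 0.36 with overlapping groups, and Il1r2, the decoy receptor for interleukin-1, by 1.41 ± 0.64. Without replicate 1 these were 1.09 ± 0.38 and 0.76 ± 0.60. The calprotectin genes S100a8 and S100a9, the most used markers of neutrophils in colitis, differed by 0.47 ± 0.37 and 0.61 ± 0.42, with overlapping groups, and by 0.27 ± 0.39 and 0.24 ± 0.40 without replicate 1.

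Among other immune lists, the 7 tested mast cell and eosinophil genes had a median of -0.25, and -0.45 without replicate 1. With all arrays 1 of the 7 had groups apart with DAPP before lower, beside 3.74% of all genes. Without replicate 1 this held for 4 of the 7, beside 10.1% of all genes. Among these 4, Mcpt4 was not detected on any DAPP-before array. The list means overlapped, at 7.31, 6.86 and 7.11 before and 7.23, 7.28 and 7.45 during. Macrophage and monocyte genes had a median of 0.05 over 16 genes, or -0.03 without replicate 1. Within it Cx3cr1, the fractalkine receptor of resident macrophages, read 5.93, 7.15 and 7.67 before and 8.22, 7.79 and 8.16 during, a difference of -1.14 ± 0.47 that was -0.64 ± 0.42 without replicate 1. Ccr2, the receptor that brings monocytes from blood, differed by -0.67 ± 0.31, whereas Cd14, a receptor for bacterial lipopolysaccharide, differed by 0.47 ± 0.23, and without replicate 1 these were -0.45 ± 0.31 and 0.46 ± 0.24. The 10 tested B and plasma cell genes had a median of 0.40 that was -0.00 without replicate 1. Mzb1, a chaperone of antibody assembly, read 11.36 on replicate 1 and 6.85 and 8.11 on its fellows, against 7.24 to 7.84 during. The 9 tested T and NK cell genes had a median of 0.31, or 0.12 without replicate 1.

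Among signalling molecules of inflammation, Il10, the cytokine that restrains macrophages, had the smallest p. It read 8.25, 6.77 and 6.52 in DAPP before DSS, against 5.69, 5.61 and 5.18 in DAPP during DSS. The controls read 4.53 to 5.14 and the DSS arrays 7.14, 6.13 and 5.09. The difference was 1.69 ± 0.51, and 1.17 ± 0.47 without replicate 1, with 0 of 16 tested cytokine genes passing over all genes. The median of these 16 was 0.08, or 0.06 without replicate 1, with 9 above 0 and 7 below in both fits. Of 25 tested chemokine genes 0 passed, and their median was 0.27, or 0.10 without replicate 1. Differences were below 0 for 6 of the 25, and for 10 without replicate 1. The chemokines Cxcl1 and Cxcl2, which attract neutrophils, differed by 1.11 ± 0.54 and 1.48 ± 0.54, and by 0.87 ± 0.60 and 0.97 ± 0.51 without replicate 1. The Cxcl1 values were 13.36, 12.95 and 12.39 before, all above the DAPP-during arrays (11.79 ± 0.18, SD, n = 3), while the DSS arrays read 11.10 to 13.40. In the NF-kappaB list 0 of 20 tested genes passed, 5 had groups apart with DAPP before higher and 2 with DAPP before lower, beside 3.97% and 3.74% of all genes, and the median was 0.09 in both fits. The higher ones were led by feedback genes of the pathway. Birc3, an inhibitor of cell death, differed by 1.10 ± 0.34 and by 1.09 ± 0.38 without replicate 1, and Nfkbia, the inhibitor that holds NF-kappaB in the cytoplasm, by 0.74 ± 0.24 and 0.64 ± 0.25.

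The medians of the epithelial lists were closer to 0 for colonocyte and junction genes once replicate 1 was left out. The 28 tested colonocyte genes of 31 had a median of -0.29, and 0.11 without replicate 1, so that the sign turned. Their mean level was 9.82, 11.42 and 10.88 before, and 10.84 to 11.12 during. Slc5a8, the butyrate carrier of colonocytes, differed by -0.83 ± 0.36, and by -0.34 ± 0.24 without replicate 1. The 19 tested junction genes had a median of -0.29, and -0.02 without replicate 1, and 17 of the 19 intervals then lay within 2-fold. The same held for only 14 of 28 colonocyte, 6 of 16 goblet cell and 7 of 21 epithelial defence genes. Goblet cell and mucin genes had medians of -0.04 and 0.14 over 16 genes, and epithelial defence genes of 0.11 and 0.19 over 21. Fcgbp, a protein of the mucus layer, read 4.57, 6.58 and 7.08 before and 7.64, 7.43 and 7.45 during, a difference of -1.44 ± 0.61 that was -0.68 ± 0.49 without replicate 1. Cell cycle genes had a median of -0.47 over 25 genes, or -0.37 without replicate 1, with 21 of 25 below 0, and 24 without replicate 1. Their list mean was 8.26, 7.82 and 9.29 before and 8.12, 9.15 and 9.33 during, so each group held both low and high arrays. Groups were apart for 0 of the 25, beside 3.97% of all genes with DAPP before higher and 3.74% with DAPP before lower.

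Genes tied to the theme of the series, oxidant defence, mitochondria, inflammation and barrier, numbered 28 tested of 29 listed, and 0 passed. The median was -0.03, and 0.12 without replicate 1, and 3 of 28 had groups apart, beside 3.97% of all genes in one direction and 3.74% in the other. These were Cxcl1 and Reg3b, higher before, and Muc2, lower before. In the antioxidant branch, Nfe2l2, which codes for NRF2, read 6.79, 9.63 and 8.83 before and 8.88, 9.07 and 8.86 during. Its difference was -0.52 ± 0.52, and 0.29 ± 0.23 without replicate 1. Its repressor Keap1 differed by -0.05 ± 0.20 with its brightest probe, and by 0.10 ± 0.18 without replicate 1. Its other probes gave -0.02 ± 0.20, -0.94 ± 0.72 and -0.86 ± 0.67 with all arrays. Among NRF2 targets, Hmox1, heme oxygenase, differed by 0.60 ± 0.40, Nqo1, a quinone reductase, by -0.61 ± 0.46, and Gclc, of glutathione synthesis, by 0.43 ± 0.38. Without replicate 1 Hmox1 and Gclc gave 0.42 ± 0.43 and 0.25 ± 0.41. The Nqo1 value turned to 0.13 ± 0.17 without replicate 1, on which the gene read 5.31 and was not detected.

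The peroxide-clearing enzymes Cat, Gpx1 and Gpx2 differed by -0.45 ± 0.32, -0.43 ± 0.36 and -0.40 ± 0.30, and by -0.04 ± 0.22, 0.11 ± 0.16 and -0.13 ± 0.27 without replicate 1. Sod2, the mitochondrial superoxide dismutase, differed by 0.38 ± 0.23, and by 0.18 ± 0.21 without replicate 1. For these 4 enzymes the intervals without replicate 1 all lay within 2-fold. Ppargc1a, a regulator of mitochondrial number, differed by -0.94 ± 0.67 with all arrays and by 0.01 ± 0.41 without replicate 1, on which it read 5.18. Tfam, which maintains mitochondrial DNA, differed by -0.02 ± 0.24, and by -0.22 ± 0.22 without replicate 1.

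The inflammatory genes of this group had no interval that lay wholly on 1 side of 0. Il1b read 10.33, 11.47 and 11.90 before and 11.56, 11.75 and 11.55 during, against 5.18 to 5.63 in controls, and its difference of -0.38 ± 0.38 turned to 0.07 ± 0.29 without replicate 1. Tnf, Il6 and Ccl2 differed by 0.15 ± 0.38, 0.48 ± 0.61 and 0.05 ± 0.44, and by 0.28 ± 0.42, 0.05 ± 0.64 and 0.09 ± 0.50 without replicate 1. Nos2, the inducible nitric oxide synthase, differed by -0.41 ± 0.61, or 0.42 ± 0.41 without replicate 1, and Ptgs2, cyclooxygenase 2, by 0.01 ± 0.33, the latter detected on 1 DAPP-before and 2 DAPP-during arrays. The interval of Il6, -0.86 to 1.82, still holds a 2-fold difference. The epithelial defence genes Lcn2, Reg3b and Reg3g differed by 0.28 ± 0.42, 0.27 ± 0.52 and 0.44 ± 0.70, and by 0.34 ± 0.47, 0.27 ± 0.60 and 0.39 ± 0.80 without replicate 1. The Reg3b probe read 14.40 to 14.97 on the DAPP arrays, close to 15.09, the highest level on any array, so the separation of its groups says little. A dimmer Reg3b probe gave 0.84 ± 0.91.

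In the barrier group, Tjp1, Ocln and Cldn2, proteins of tight junctions, differed by -0.29 ± 0.22, -0.39 ± 0.31 and -0.18 ± 0.40. Without replicate 1 these were -0.20 ± 0.22, 0.01 ± 0.21 and 0.21 ± 0.36, so that the sign of Ocln and Cldn2 turned. Muc2, the gel-forming mucin of goblet cells, read 12.87, 14.89 and 14.85 before and 14.97 ± 0.04 (SD, n = 3) during. Its difference of -0.77 ± 0.48 became -0.10 ± 0.32 without replicate 1, and its 2 dimmer probes, at mean levels of 5.51 and 5.65, gave 0.11 and 0.28. Outside replicate 1 its bright probe, too, read close to the highest level. Tff3, a goblet cell peptide of mucosal repair, differed by -0.04 ± 0.20, and by -0.11 ± 0.20 without replicate 1.

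**Figure D5:**
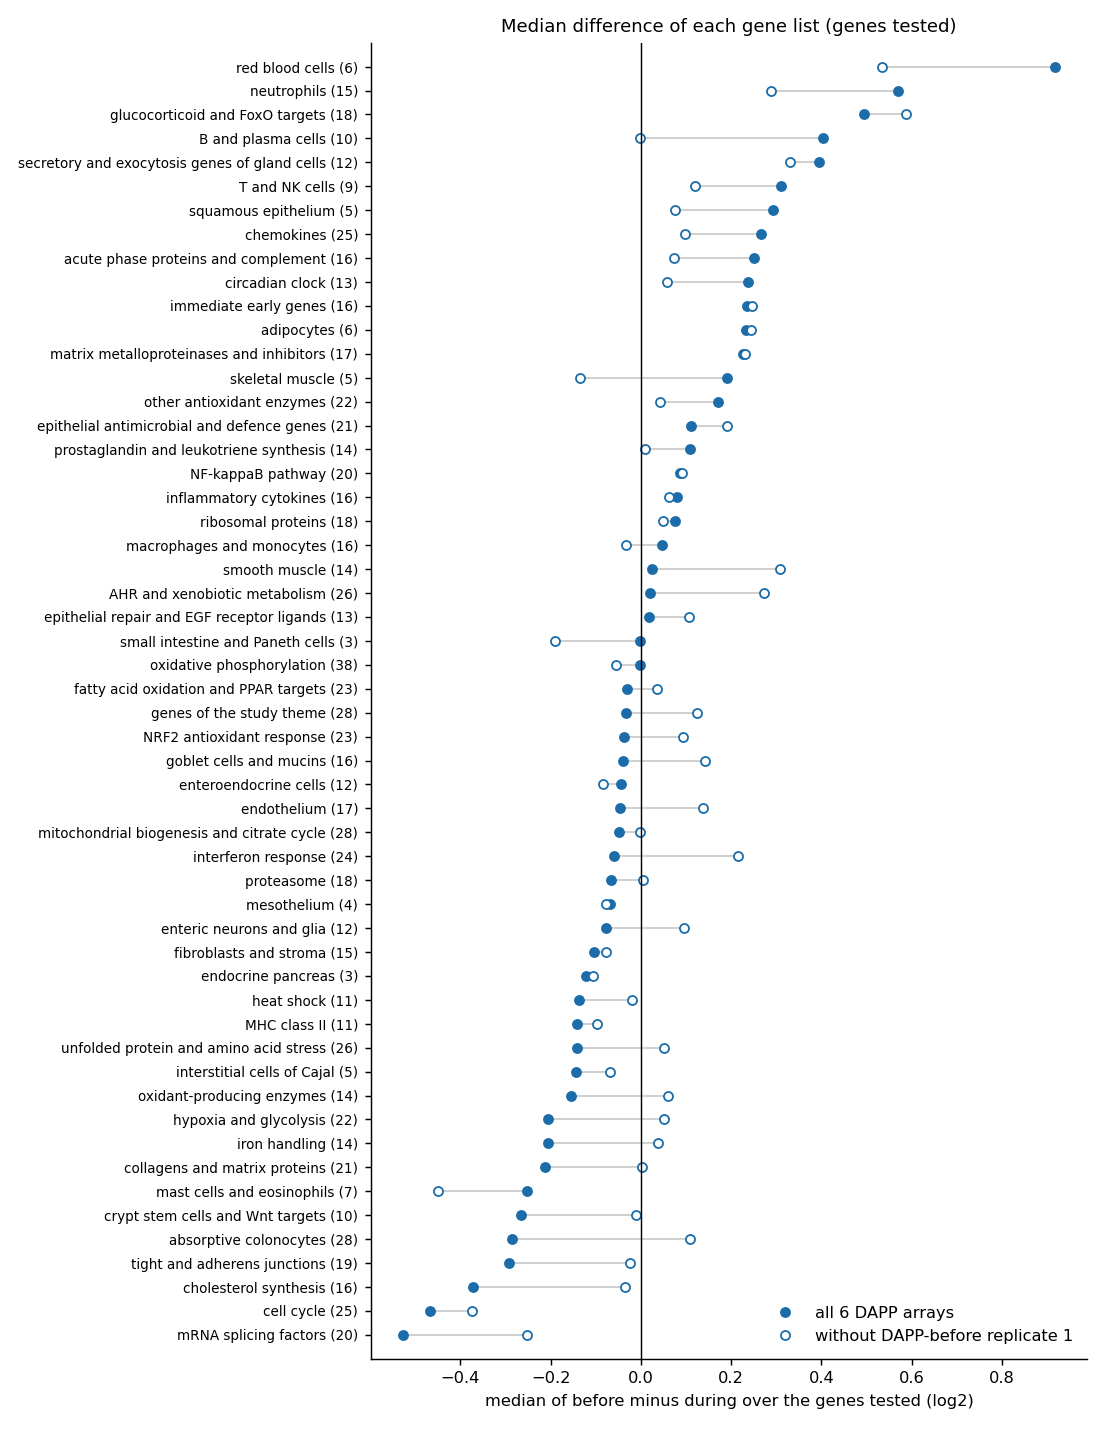
Median of DAPP before minus DAPP during over the tested genes of each list, with all 6 DAPP arrays (filled) and without DAPP-before replicate 1 (open), number of tested genes in parentheses. The exocrine pancreas list, at 3.53 and 3.14, is off this scale and left out. Glucocorticoid and FoxO targets, at 0.49 and 0.59, are among the few lists far from 0 in both, and 17 lists change sign.

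Across all 55 lists, 1108 different genes were listed, 824 were tested and 0 passed. The list median had the same sign with and without replicate 1 in 38 lists and the opposite sign in 17. It was over 0.2 in size with the same sign in both fits for 11 lists. Besides the lists above, these included red blood cells, with a median of 0.92 over 6 genes, or 0.53 without replicate 1. Their mean was 12.07, 10.76 and 10.64 before and 11.37, 9.76 and 9.75 during, with overlap, and Hba-a1, a globin gene, differed by 1.11 ± 0.53, and by 0.63 ± 0.51 without replicate 1. Matrix metalloproteinases and their inhibitors had medians of 0.23 and 0.23 over 17 genes, and immediate early genes 0.23 and 0.25 over 16. In the cholesterol synthesis list the median was -0.37 with all arrays and -0.04 without replicate 1, so its distance from 0 rested on that array.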

How the data were processed

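Total RNA of 12 mouse colon samples, 3 in each of 4 groups, was hybridised to Illumina bead arrays. The deposited table gives, per the file headers, a signal intensity and a detection p-value for each probe on each array. Per the submitters' processing notes GenomeStudio was used, with its version not given in the sources used here and its background handling not stated. A further 1949 blank lines were left out, and 0 sample columns were unused. The authors' processed intensities served as an alternative. They look quantile-normalised, inferred from equal means of 567, and are neither centred nor logged.

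Intensities were corrected and quantile-normalised over 12 arrays with limma's neqc (offset 16), which uses the detection p-values, and put on the log2 scale (R 4.3.3, limma 3.58.1). Of 45281 probes, 34885 had 1 gene symbol in the platform table, 18 several and 10378 none. Symbols were updated through Entrez identifiers to a GRCm38.p6 table for 34807. The brightest kept probe stood for each gene. A model with 4 groups was fitted with lmFit and eBayes (8 residual and 3.88 prior degrees of freedom), and p-values were adjusted by Benjamini-Hochberg over 11322 genes, with a threshold of 0.05. The fit without DAPP-before replicate 1 was normalised anew. Where every array of the dimmer group lacked detection of a gene, its ratio is a bound, "at least N-fold", set by the lowest signal among detected probes. The procedure was tested on simulated data with independent noise, of equal spread on all arrays for each gene. No simulated array stood apart, so that test does not cover an array such as replicate 1 of DAPP before DSS.

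Named genes are the called ones, or failing those, the 12 of smallest p in each direction with groups apart and all arrays of the brighter group detected, the up to 4 list members of smallest p, and all theme genes. Genes given only as examples of replicate 1 or as list members with groups apart were chosen after their values were seen. The members and lists were chosen with earlier results of these data known. The number of arrays limits precision. The replicate numbers were not used as pairs in the main fit. Deviations of same-numbered before and during arrays correlated at 0.059, -0.0063 and 0.115, and those of differently numbered ones at -0.324 to 0.216. With 3 arrays a group, these values cannot exclude a pairing. No array pair was identical (0 pairs).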

Additional observations from a re-analysis of the deposited data

How the results depend on the processing

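No gene passed the test under any of 26 alternatives, which changed background correction, scaling, filter, probes, samples, weights, block or covariate one at a time, or for 1 setting samples and replicate 1 together (smallest adjusted limma p 0.342, without DAPP-before replicate 3). With all 6 DAPP arrays the replicate block also gave 0 genes, with 532 at an unadjusted p under 0.05. Of the unadjusted counts, chosen as a measure after seeing the data, the main 468 became 919 with equal medians, 818 with no detection filter, 295 with detection p under 0.01 on all 6 DAPP arrays, 888 over all kept probes, 262 with only the 6 DAPP arrays and 299 with the pancreas covariate. Leaving out 1 array gave 238 (without DAPP-during replicate 3) to 1342 (without DAPP-before replicate 3), with 1275 without DAPP-before replicate 2 and 277 without DAPP-during replicate 2. Without DAPP-before replicate 1, 1 gene passed when no detection filter was used: Lpar3, a lysophosphatidic acid receptor, at 6.38 and 6.40 before and 4.71 to 5.03 during (adjusted limma p 0.0193). It was named after its value was seen, is detected on 2 DAPP arrays and so is outside the filter, and read 4.77 on replicate 1. The 24 ranked genes kept their sign in all 614 values under the alternatives. They were chosen for groups that do not overlap, which largely fixes the sign when an array is left out. That count is therefore no support for them. Their size was not kept: with no background correction Car14 was 0.31, Tac2 0.27, Rbm3 -0.37 and Zfp866 -0.27, and the authors' processed values gave the same to 2 decimals. The same setting gave 1.57 for Depp1. Over all 52 named and theme genes 47 of 1338 values had the opposite sign. Of 1430 list medians 128 had the opposite sign, 0 of them for glucocorticoid and FoxO targets (0.35 to 0.72), splicing factors (-0.68 to -0.25), cell cycle (-0.88 to -0.15) and neutrophils (0.29 to 0.86). Detection limits the dim genes. A ratio is given as a bound only where no array of the dimmer group detected the gene. Genes detected on some arrays of that group are given as plain differences, though part of their values lies near background. The 3 arrays a group limit all genes.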

Other observations

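Genes whose symbol is Zfp and a number, looked at because 4 of them were among the 12 genes lower in DAPP before DSS, and therefore chosen after their values were seen, numbered 184 tested. Groups were apart with DAPP before lower for 14 of them (7.61%) and with DAPP before higher for 6 (3.26%), beside 3.74% and 3.97% of all genes. Their median difference was -0.09, and -0.10 without replicate 1. Without replicate 1 the groups were apart for 44 (23.9%) with DAPP before lower and 13 (7.07%) with DAPP before higher, beside 10.1% and 7.93% of all genes. No test was made.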
